A study of Mus musculus with 6 samples.

Results

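The genes described here are 10 mouse antiviral genes that respond to type I interferon: Isg15, Usp18, Ifit1, Ifit3, Oas1a, Oasl2, Mx1, Rsad2, Bst2 and Ifi44. They were listed by symbol, not by a cut on measured values, but with earlier results of these data known. All 10 were present among the 24421 genes of the count matrix. The question was how their transcripts differed between regulatory T (Treg) cells with and without the microRNA miR-142, set against genes typically induced by interferon gamma (IFNγ). The WT group was 3 libraries of Foxp3Cre mice and the KO group 3 libraries of Foxp3Cre miR-142fl/fl mice. All 6 mice were C57BL/6 females of 8 to 11 weeks, and each library was made from CD4+YFP+ cells sorted from 1 spleen, without treatment. Mice of both groups carried the Foxp3 allele that drives a YFP-Cre fusion protein, so excision was limited to cells that express, or had expressed, Foxp3. The cells went from the animal to RNA extraction without culture, so loss of miR-142 inside the cell and differences in the animal around it cannot be told apart.

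Type I interferons (IFNα and IFNβ) bind the IFNAR1 and IFNAR2 receptor chains, whose kinases JAK1 and TYK2 activate STAT proteins. STAT2 and IRF9 are parts of the complex ISGF3, which binds the interferon-stimulated response element (ISRE) in the promoters of antiviral genes. IFNγ acts through its own receptor and the gamma-activated sequence (GAS) in promoters, and it induces guanylate-binding proteins, immunity-related GTPases and the antigen-processing machinery. The responses overlap, since many of these genes can answer to either interferon. Lymphocytes are known to express antiviral genes at a low level in the absence of infection.

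Promoters of 8 of the 10 genes were found in a RefSeq collection (GRCm38.p6, 250 bases before to 50 after the annotated start). Mx1 and Usp18 had no entry there. The ISRE core was searched as GAAANNGAAA on either strand, and 6 of the 8 promoters (75.0%) held it. The share was 3.44% among all 32851 promoters in that collection, and among the genes tested here 3.70%. The motif was not particular to the 10 genes, since it was also present in 12 of 19 IFNγ-induced genes (63.2%) and 14 of 35 other antiviral genes (40.0%) with a promoter. The windows below are shown because they carry the motif that ISGF3 is known to bind. They are given 5′ to 3′ on the strand of the gene, with the bases of the motif matches in capitals and 12 bases on either side.
Isg15 (chr4:156200863-156200908, minus strand): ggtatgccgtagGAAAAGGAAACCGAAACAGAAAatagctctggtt
Ifit1 (chr19:34640773-34640825, plus strand): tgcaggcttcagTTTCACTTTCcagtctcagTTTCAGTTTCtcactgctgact
Ifit3 (chr19:34583361-34583428, plus strand): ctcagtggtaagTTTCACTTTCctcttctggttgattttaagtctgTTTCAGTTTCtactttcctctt
Oas1a (chr5:120907518-120907557, minus strand): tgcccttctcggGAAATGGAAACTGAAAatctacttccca
Rsad2 (chr12:26456551-26456584, minus strand): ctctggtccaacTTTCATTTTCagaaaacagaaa
Bst2 (chr8:71537575-71537614, minus strand): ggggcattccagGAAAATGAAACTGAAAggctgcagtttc
The 3 overlapping matches of Isg15 began 78 to 66 bases before the annotated start, and the matches of Oas1a began 20 and 14 bases before it. In Ifit1, Ifit3 and Rsad2 the motif lay on the opposite strand, as TTTCNNTTTC. It was present at a pair of separate positions in Ifit1 and in Ifit3 and at 1 position in Rsad2. The promoters of Oasl2 and Ifi44 held no exact match, and with 1 mismatch in the fixed bases all 8 promoters matched, against 38.9% of all genes in the collection. The GAS core, searched as TTCNNNGAA, was found in 2 of the 8 (25.0%), Oas1a and Bst2, in 9 of the 19 IFNγ-induced genes (47.4%) and in 8.51% of the genes tested. The windows were not tested for binding, and the presence of a match is a description of the sequence only.

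Total counts per library lay between 13883069 and 24042994, and 11658 genes with CPM (counts scaled to the size of the library) above 1 in at least 3 libraries were tested. Mir142b, an annotation on the strand opposite the targeted microRNA gene, averaged 6.33 ± 2.498 CPM in the WT and 0.370 ± 0.0244 CPM in the KO group (SD of 3 libraries each), and all 3 KO libraries were below all WT libraries. All 6 Treg markers, Foxp3, Cd4, Cd3e, Il2ra, Ctla4 and Ikzf2, were above 1 CPM in every WT library. KO replicate 1 stood apart from the other libraries by transcripts of other cell types. The summed CPM of 10 monocyte and macrophage markers was 3052 there, 89.0 and 23.0 in KO replicates 2 and 3 and 12.9 to 17.1 in WT, with 10 of the 10 genes highest in KO replicate 1. For neutrophil markers the sum was 839.6 CPM there, 7.72 and 40.5 in KO replicates 2 and 3 and 0.277 to 1.29 in WT (8 of 9 genes highest in KO replicate 1, with S100a8, Retnlg and Mmp8 at 0 in every WT library), and for B cell markers 206.3 CPM against 7.87 and 11.6 in the remaining KO libraries and 14.9 to 21.8 in WT (6 of 6). Markers of plasmacytoid dendritic cells, which are known as strong producers of type I interferon, summed to 226.0 CPM in KO replicate 1, to 61.3 and 44.7 in KO replicates 2 and 3 and to 17.5 to 21.6 in WT, with Siglech, Cox6a2 and Klk1 at 0 in every WT library. Plasma cell markers summed to 298.4, 184.9 and 205.0 CPM in KO replicates 1, 2 and 3 and to 122.4 to 144.0 in WT. Of these 5 markers, 2 were above 1 CPM in every WT library, so this sum need not come from plasma cells. The same limit applies to plasmacytoid dendritic cells (2 of 7 markers) and to monocytes and macrophages (3 of 10). It also applies to B cells (2 of 6) and to CD8 T and NK cells (3 of 6). For neutrophils and for erythroid cells, 0 markers were above 1 CPM in every WT library. CD8 T and NK cell markers summed to 84.5, 56.7 and 45.8 CPM in the KO replicates and to 20.3 to 24.3 in WT. Erythroid markers summed to 11.99 CPM in KO replicate 1 and to 1.82 or less in the other libraries. Of these 7 lists, all but that of B cells thus also summed higher in KO replicates 2 and 3 than in any WT library, so a fit without KO replicate 1 still compares libraries that differ in such transcripts. Each result on the 10 genes is therefore given with and without this library. The part of these transcripts in the results was not tested.

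None of the antiviral genes was called higher in KO Treg cells. All 10 passed the filter on low values, 0 were called higher and 1, Usp18, was called lower in KO (edgeR quasi-likelihood F (QLF) test, Benjamini-Hochberg false discovery rate (FDR) under 0.05). The share of all genes tested that was called was 11.6% higher and 7.27% lower. For 10 genes, counts of 0 and 1 are close to these shares. A gene that was not called was not thereby shown to be unchanged. At an unadjusted p under 0.05 the counts were also 0 higher and 1 lower, and DESeq2 called 0 higher and 1 lower. The log2 fold changes (KO over WT) of the 10 genes ran from -0.68 to 0.68, 6 above 0 and 4 below, with a median of 0.20 beside 0.0164 over all genes tested. Without KO replicate 1, all 10 log2 fold changes were below 0, with a median of -0.31 beside -0.0164 over all genes. Then 0 were called higher and 4 were called lower: Usp18, Ifit1, Oas1a and Rsad2. In that comparison of 3 WT with 2 KO libraries, 9.69% of the genes tested were called higher and 7.59% lower, at an unadjusted p under 0.05 the counts were also 0 and 4, and DESeq2 called 0 higher and the same 4 genes lower. In sorted bulk samples, fewer cells that express a gene and less RNA per cell cannot be told apart.

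**Figure D1:**
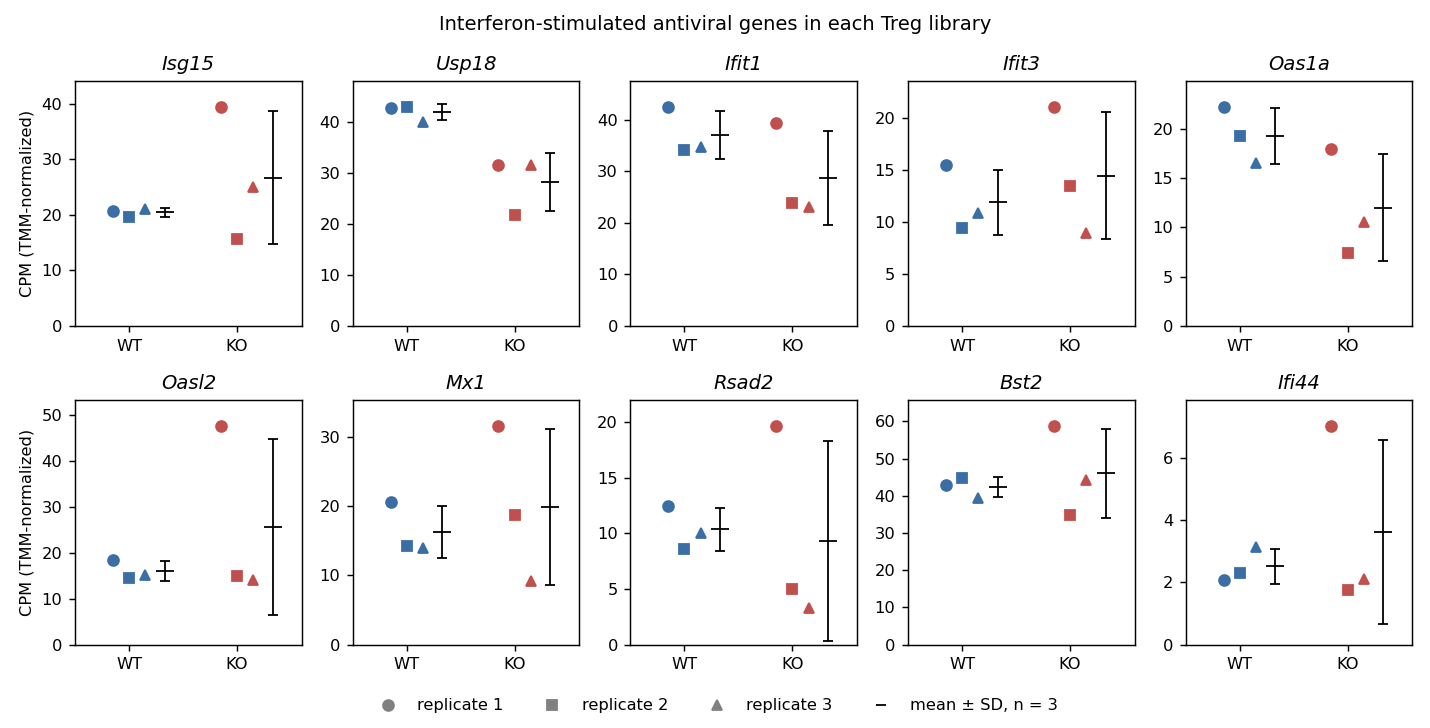
Normalized CPM (y axis, each panel from 0) of the 10 antiviral genes in the WT and KO libraries (x axis), with 1 symbol per replicate number and the group mean ± SD (n = 3) beside the points. KO replicate 1 (red circle) is the highest KO library in all 10 panels, and KO replicates 2 and 3 both lie below all WT libraries for Usp18, Ifit1, Oas1a and Rsad2.

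The 10 genes shared the rank of KO replicate 1 within the KO group, but not its place relative to the WT libraries. KO replicate 1 had the highest CPM of the 3 KO libraries for 10 of 10 genes, although for Usp18 it was almost level with KO replicate 3, and the highest of all 6 libraries for 7 of 10. Over all genes tested these shares were 34.3% and 23.4%. They were 83.0% and 57.4% for the 47 other antiviral genes tested, and 79.3% in both cases for the 29 IFNγ-induced genes. A high KO replicate 1 was thus not particular to the 10 genes. The ratio of KO replicate 1 to the mean of KO replicates 2 and 3 had a median of 1.97 over the 10 genes. It was 1.24 over the other antiviral genes, 1.30 over the IFNγ-induced genes and 0.994 over all genes tested. KO replicate 2 lay below all 3 WT libraries for 7 of the 10 genes, and for 4276 of all 11658 genes tested. KO replicate 3 did so also for 7 of the 10, and for 4175 of all genes tested. Both libraries did so for 4 of the 10 genes, the 4 called lower without KO replicate 1. Of all genes tested, 23.7% had both libraries below WT. For 1 of the 10 genes, Usp18, there was no overlap between KO and WT libraries, against 41.0% of all genes tested in either direction. With 3 libraries against 3, an exact two-sided permutation test of 1 gene cannot give a p below 0.1, and the 10 genes gave values from 0.1 (Usp18) to 0.9.

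Isg15 and Usp18 form a pair of modifier and protease. Isg15 encodes a ubiquitin-like protein that is attached to other proteins or secreted, and Usp18 encodes the protease that removes it and that also restrains signalling at IFNAR2. Isg15 (ENSMUSG00000035692.6, chr4:156199424-156200818, minus strand) had 20.8, 19.6 and 21.0 CPM in WT replicates 1, 2 and 3 and 39.4, 15.7 and 25.0 CPM in the KO replicates in the same order. The WT libraries differed little, while the KO libraries lay on both sides of them. Its log2 fold change was 0.39 (SE 0.30, 95% confidence interval -0.31 to 1.09, FDR = 0.395, edgeR QLF), and without KO replicate 1 it was -0.02 (SE 0.19, FDR = 0.957).

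Usp18 (ENSMUSG00000030107.10, chr6:121245906-121270917, plus strand) had 42.6, 42.8 and 40.0 CPM in the WT libraries. In the KO libraries it had 31.5, 21.7 and 31.5 CPM, all below the lowest WT library. The group means were 41.8 ± 1.57 CPM (WT) and 28.2 ± 5.64 CPM (KO; SD, n = 3), and the log2 fold change was -0.56 (SE 0.16, 95% confidence interval -0.93 to -0.20, FDR = 0.0445, edgeR QLF). Without KO replicate 1 it was -0.67 (SE 0.17, FDR = 0.0318). The call was close to the threshold, since the FDR was 0.109, 0.147 and 0.110 without WT replicate 1, 2 or 3 and 0.0575 without KO replicate 3. Of the exon bases of Usp18, 124 are shared with Gm44148 on the other strand, and because counting ignored strand the reads there cannot be assigned to either gene.

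Ifit1 and Ifit3 encode members of the IFIT family. IFIT1 binds viral RNA that lacks the cap methylation of host messages and blocks its translation, and IFIT3 is known as its partner. Ifit1 (ENSMUSG00000034459.8, chr19:34640871-34650009, plus strand) had 42.4, 34.1 and 34.7 CPM in WT and 39.2, 23.8 and 23.1 CPM in KO. KO replicate 1 lay among the WT libraries and the other KO libraries lay below all of them. For Ifit1 the log2 fold change was -0.37 (SE 0.22, FDR = 0.282, edgeR QLF) with all libraries and -0.68 (SE 0.14, FDR = 0.0165) without KO replicate 1, when it was called lower. Of its 51-base stretches, 7.02% also occur in Ifit1bl1 or Ifit1bl2.

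Ifit3 (ENSMUSG00000074896.3, chr19:34583531-34588731, plus strand) had 15.4, 9.43 and 10.8 CPM in WT and 21.0, 13.4 and 8.90 CPM in KO. The groups overlapped, with KO replicate 2 inside the WT range. In the fit the log2 fold change of Ifit3 was 0.28 (SE 0.33, 95% confidence interval -0.49 to 1.06, FDR = 0.584, edgeR QLF), and -0.11 (SE 0.26, FDR = 0.819) without KO replicate 1. Its value is uncertain because 50.8% of its 51-base stretches also occur in Ifit3b, and how reads that match more than 1 gene were counted is not given in the sources used here.

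Oas1a and Oasl2 belong to the oligoadenylate synthetase family. OAS1 enzymes make 2′-5′-linked oligoadenylates when they meet double-stranded RNA, and these activate RNase L. Oasl2 is an OAS-like relative with ubiquitin-like domains. Oas1a (ENSMUSG00000052776.10, chr5:120896256-120907521, minus strand) had 22.2, 19.2 and 16.5 CPM in WT and 18.0, 7.42 and 10.5 CPM in KO. As with Ifit1, KO replicate 1 lay within the WT range and the remaining KO libraries below it. For Oas1a the log2 fold change was -0.68 (SE 0.31, 95% confidence interval -1.41 to 0.05, FDR = 0.167, edgeR QLF) and, without KO replicate 1, -1.12 (SE 0.21, FDR = 0.0107), a level 2.17-fold lower than in WT. Of its 51-base stretches, 57.0% also occur in Oas1b or Oas1g, so its value is uncertain for the same reason as that of Ifit3.

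Oasl2 (ENSMUSG00000029561.17, chr5:114896936-114912234, plus strand) had 18.5, 14.5 and 15.2 CPM in WT and 47.6, 14.9 and 14.1 CPM in KO. A single KO library, replicate 1, carried the difference in means, and the others lay at or near the lowest WT library. The log2 fold change was 0.68 (SE 0.46, FDR = 0.339, edgeR QLF), and -0.16 (SE 0.16, 95% confidence interval -0.53 to 0.22, FDR = 0.544) without that library.

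Mx1 encodes a dynamin-like GTPase known for blocking influenza viruses, and common laboratory strains carry a defective allele of it. It lies on the minus strand (ENSMUSG00000000386.15, chr16:97447035-97462907) and had 20.6, 14.2 and 13.9 CPM in WT and 31.6, 18.7 and 9.17 CPM in KO. The KO libraries spanned the WT range on both sides. The log2 fold change was 0.29 (SE 0.41, 95% confidence interval -0.66 to 1.25, FDR = 0.655, edgeR QLF), and -0.24 (SE 0.30, FDR = 0.636) without KO replicate 1.

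Rsad2 encodes viperin, a radical SAM enzyme that makes a chain-terminating nucleotide. Rsad2 (ENSMUSG00000020641.16, chr12:26442746-26456452, minus strand) had 12.4, 8.57 and 10.01 CPM in WT and 19.6, 4.997 and 3.28 CPM in KO, so that KO replicate 1 was above all WT libraries and the other KO libraries below all of them. KO replicate 1 was 4.75 times the mean of the other KO libraries, the highest such ratio of the 10 genes. The log2 fold change was -0.14 (SE 0.61, 95% confidence interval -1.57 to 1.29, FDR = 0.894, edgeR QLF) with all libraries, and -1.34 (SE 0.27, FDR = 0.0132) without KO replicate 1, a level 2.52-fold lower than in WT.

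Bst2 encodes tetherin, a membrane protein that holds budding virions at the cell surface. Bst2 (ENSMUSG00000046718.8, chr8:71534255-71537456, minus strand) had 42.9, 44.7 and 39.5 CPM in WT and 58.8, 34.9 and 44.3 CPM in KO. The groups overlapped, and the difference was small beside the spread in KO. For Bst2 the log2 fold change was 0.12 (SE 0.18, 95% confidence interval -0.31 to 0.55, FDR = 0.683, edgeR QLF), and -0.11 (SE 0.14, FDR = 0.625) without KO replicate 1.

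Ifi44, a GTP-binding domain protein whose action is less well defined, was the rarest of the 10 transcripts. Ifi44 (ENSMUSG00000028037.13, chr3:151730922-151749960, minus strand) had 34, 56 and 57 counts in WT and 127, 23 and 31 counts in KO, which correspond to 2.09, 2.30 and 3.15 CPM and to 7.05, 1.74 and 2.12 CPM. KO replicate 1 was high and the other KO libraries were near the lowest WT library. For Ifi44 the log2 fold change was 0.55 (SE 0.54, FDR = 0.510, edgeR QLF), and -0.39 (SE 0.30, 95% confidence interval -1.09 to 0.31, FDR = 0.417) without KO replicate 1.

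**Figure D2:**
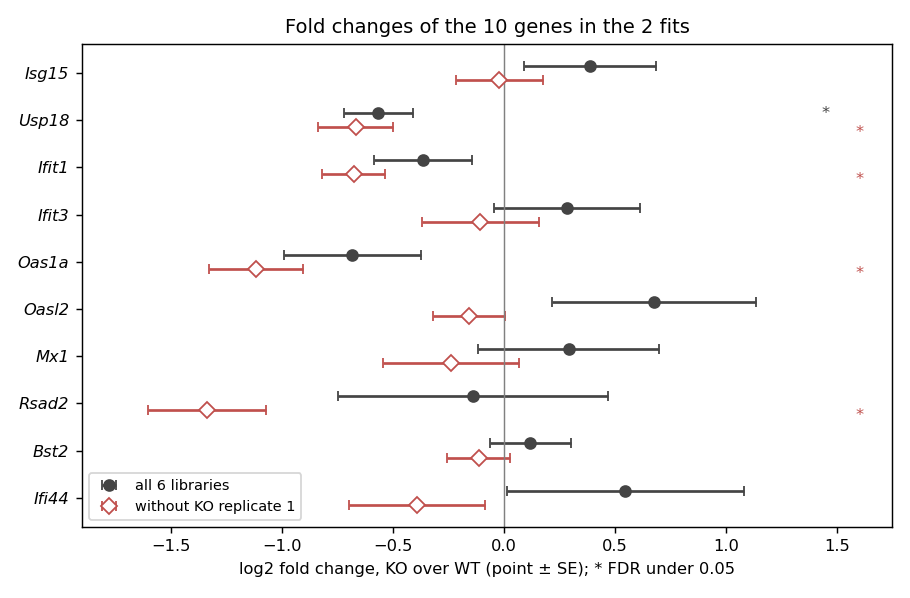
Log2 fold changes (x axis, KO over WT, point ± SE from the edgeR QLF fit) of the 10 antiviral genes (y axis), with all 6 libraries (filled circles) and without KO replicate 1 (open diamonds). Asterisks at the right mark an FDR under 0.05. Usp18 is marked in both fits, Ifit1, Oas1a and Rsad2 only without KO replicate 1, and all 10 diamonds lie below 0.

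To compare levels between genes, normalized CPM was divided by the length of the union of annotated exons, in kilobases (GENCODE vM21, GRCm38). On this scale the WT levels were 46.9 ± 2.94 CPM per kb for Bst2, 27.0 ± 1.01 for Isg15, 15.0 ± 0.562 for Usp18, 13.9 ± 1.74 for Ifit1 and 10.2 ± 1.51 for Oas1a (SD, n = 3). The lower part of the order was Ifit3 with 6.81 ± 1.79, Mx1 with 4.29 ± 0.990, Oasl2 with 2.52 ± 0.336, Rsad2 with 2.39 ± 0.452 and Ifi44 with 0.410 ± 0.0918 CPM per kb. The WT ranges of neighbours in this order overlapped for Usp18 and Ifit1, for Oas1a and Ifit3, for Ifit3 and Mx1 and for Oasl2 and Rsad2. Part of this order depends on the length used: per kilobase of the longest protein-coding transcript, a scale chosen after the values were seen, Oasl2 (5.13 ± 0.686 CPM per kb) came before Mx1 (4.80 ± 1.11), and Usp18 (23.6 ± 0.886) was clear of Ifit1. Bst2 and Isg15, the most abundant per length on either scale, lay clear of each other and of the rest. In KO the means per length were 50.97 ± 13.4 CPM per kb for Bst2, 35.3 ± 15.8 for Isg15 and 10.1 ± 2.02 for Usp18.

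Upstream of these genes, transcripts of the type I interferons themselves were at or near 0. Of 18 ligand genes (IFNβ, the IFNα genes and relatives), 14 had 0 counts in all 6 libraries, which allows up to 3 counts, or 0.123 to 0.227 CPM, per library for counting error alone. The other 4 had 9 counts in all, with at most 2 in any library. Among 7 genes of the receptor and its signal transduction, 2 were called higher and 0 lower in KO with all libraries (by QLF and by DESeq2, with 0 lower at an unadjusted p under 0.05 in the QLF test), and the same 2 were called higher without KO replicate 1. Over all genes tested 11.6% were called higher and 7.27% lower with all libraries, and 9.69% and 7.59% without KO replicate 1. Ifnar1, a receptor chain, rose from between 340.9 and 378.4 CPM in the WT libraries to 443.7, 517.0 and 446.6 CPM in the KO libraries (log2 fold change 0.39, SE 0.10, FDR = 0.0334, edgeR QLF). Every KO library was above every WT library for Ifnar1. The ISGF3 subunits Stat2 and Irf9 were not called: the log2 fold changes were -0.10 for Stat2 (SE 0.14, FDR = 0.649) and -0.17 for Irf9 (SE 0.08, FDR = 0.169). Without KO replicate 1 they were -0.30 for Stat2 (SE 0.09, FDR = 0.0568, edgeR QLF) and -0.18 for Irf9 (SE 0.09, FDR = 0.231), again not called. In that fit 2 of the 7 genes were higher and 2 lower at an unadjusted p under 0.05. Over all 11429 genes tested in it, 1933 were higher and 1838 lower at that level.

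To place the 10 genes among their relatives, 55 other interferon-stimulated antiviral genes were listed, of which 47 were tested. In the QLF test 7 were called higher and 9 lower in KO, with a median log2 fold change of 0.00663, so the shares called (14.9% and 19.1%) lay above the 11.6% and 7.27% of all genes in both directions. DESeq2 called 10 higher and 12 lower, beside 1665 and 1198 of all 11658 genes tested. Without KO replicate 1 the QLF counts were 5 higher and 14 lower, with a median of -0.20. In that fit the shares were 10.6% and 29.8%, beside 9.69% and 7.59% of all genes tested. The share called higher was then close to that of all genes. Among the direct relatives of the 10 genes, the lower calls were Ifit1bl1 (log2 fold change -1.34, SE 0.17, FDR = 0.0034), an IFIT relative, and Oas1c (-0.59, SE 0.13, FDR = 0.0209). Oas2, another synthetase, joined them without KO replicate 1 (-1.33, FDR = 0.00327), while the log2 fold change with all libraries was -0.38 (FDR = 0.635). Within the ISG15 pathway Uba7, the E1 enzyme of ISG15 conjugation, was called higher (0.38, SE 0.10, FDR = 0.0368), but not without KO replicate 1 (FDR = 0.0804). Herc6, the ligase of the same pathway, went the other way, not called with all libraries (-0.39, FDR = 0.0559) and called lower without KO replicate 1 (-0.44, FDR = 0.0487).

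The remaining calls among these relatives went in both directions. Lower in KO were also the membrane proteins Ifi27l2a and Ifi27 and the effectors Samd9l, Trim25, Trim30a, Trim34a and Sp100, with log2 fold changes from -0.93 for Samd9l to -0.35 for Trim34a, and all 9 lower calls stood without KO replicate 1. Higher were Ifitm2 and Ifitm3, which hinder the entry of viruses, the nucleic acid sensor Zbp1, the exonuclease Isg20, and Parp12 and Ifi35. Of the 7 higher calls, those of Uba7 and Ifi35 (FDR = 0.0796) were lost without KO replicate 1. Ifitm3 was low in WT (0.996 to 1.19 CPM) and had 41.1, 5.91 and 12.5 CPM in KO. Its log2 fold change of 4.19 was the largest of the list, and it was 3.07 without KO replicate 1, the library with the highest sums of myeloid markers. Irf7, the interferon-inducible factor that amplifies the response, was not called (0.14, SE 0.29, FDR = 0.773, and -0.35, FDR = 0.05003, without KO replicate 1).

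The genes typically induced by IFNγ had another pattern than the 10 antiviral genes. Of 34 listed, 29 were tested, 18 were called higher and 0 lower in KO (0 lower also at an unadjusted p under 0.05 and by DESeq2), with a median log2 fold change of 0.71 and 28 of 29 above 0. Of all genes tested 11.6% were called higher and 7.27% lower. This list was drawn up knowing that such genes rise in these samples, so its count is not independent evidence of the direction. Without KO replicate 1, 16 were called higher and 0 lower, with a median of 0.53, beside 9.69% and 7.59% of all genes tested. With all libraries, 8 of 11 guanylate-binding proteins were called higher (Gbp2, Gbp3, Gbp4, Gbp5, Gbp7, Gbp8, Gbp9 and Gbp11). So were 3 of 6 immunity-related GTPases (Igtp, Iigp1 and Tgtp1), 5 of 6 antigen-processing genes (Psmb8, Psmb10, Tap1, Tap2 and Tapbp), Socs1 and Ciita. The calls of Gbp8 (FDR = 0.0568), Tapbp (FDR = 0.0514) and Socs1 (FDR = 0.0871) were lost without KO replicate 1. Irf8 was called higher only in that fit (FDR = 0.0375, edgeR QLF). Gbp2 had 115.4 to 146.1 CPM in WT and 633.8, 346.4 and 585.0 CPM in KO (log2 fold change 2.02, SE 0.23, FDR = 0.0025, edgeR QLF), and 1.84 (FDR = 0.00123) without KO replicate 1. Ciita, which controls MHC class II genes, had 1.16 CPM or less in WT and 98.8, 3.71 and 4.58 CPM in KO, the highest value in replicate 1, and its log2 fold change of 5.12 became 1.998 without that library. Irf1 had 365.3 to 450.6 CPM in WT and 693.7, 509.3 and 526.4 CPM in KO, with every KO library above every WT library. It narrowly missed the threshold (log2 fold change 0.51, SE 0.15, FDR = 0.051, edgeR QLF). Without KO replicate 1 the log2 fold change of Irf1 was 0.34 (FDR = 0.0815), again not called.

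**Figure D3:**
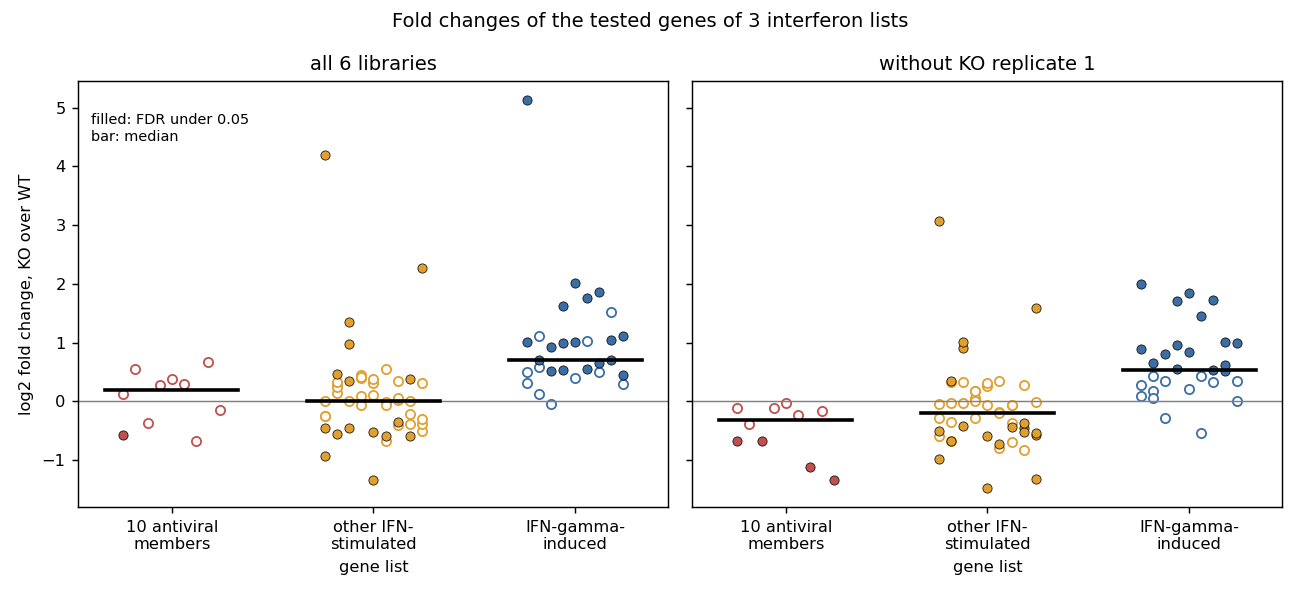
Log2 fold changes (y axis, KO over WT, edgeR QLF fit) of the tested genes of 3 lists (x axis), with all 6 libraries (left) and without KO replicate 1 (right). Each point is a gene, filled where its FDR was under 0.05, and the bar is the median, which lies at 0.20 and -0.31 for the 10 antiviral genes and at 0.71 and 0.53 for the IFNγ-induced genes.

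Read library by library, the lists parted in KO replicates 2 and 3. The median over the 10 antiviral genes of the log2 CPM (with 0.5 added) minus the WT mean was 0.20, -0.10 and -0.08 in the WT libraries. In KO it was 0.87, -0.39 and -0.39, above WT in KO replicate 1 and below WT in the others. For the IFNγ-induced genes the same median was 0.06, -0.02 and -0.09 in WT and 0.90, 0.45 and 0.70 in KO, above WT in all 3. For the 47 other antiviral genes it was 0.26, -0.25 and -0.14 in KO. The difference between the lists was not tested, because genes of a list are not independent replicates.

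**Figure D4:**
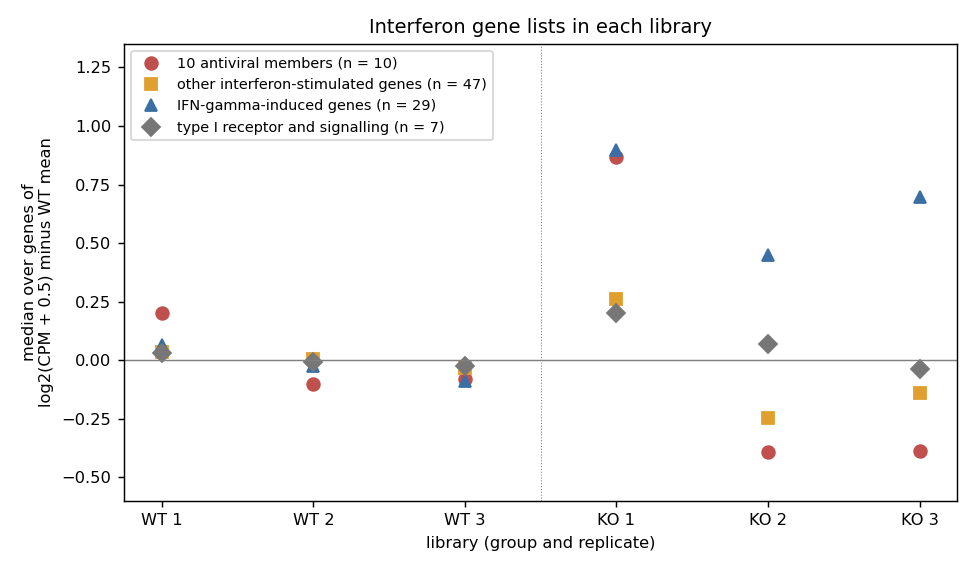
Median over the genes of each list of log2(CPM + 0.5) minus the WT mean of the gene (y axis) in each library (x axis). The antiviral genes (circles) and the IFNγ-induced genes (triangles) coincide near 0.87 and 0.90 in KO replicate 1 and separate in KO replicates 2 and 3, at -0.39 and -0.39 against 0.45 and 0.70.

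The deleted microRNA gives rise to a mature product from each arm of its hairpin. Both are shown (RefSeq, GRCm38.p6) with the seed, bases 2 to 8, in capitals, because sites that pair with the seed were counted in the longest annotated 3′ UTR of each gene.
mmu-miR-142a-3p (chr11:87756903-87756925, plus strand): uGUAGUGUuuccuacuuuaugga
mmu-miR-142a-5p (chr11:87756867-87756887, plus strand): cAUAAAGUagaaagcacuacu
For the 3p arm both ACACTAC and AACACTA, offset by 1 base, were counted, and for the 5p arm ACTTTAT. The 3′ UTRs of the 10 antiviral genes ranged from 160 bases in Isg15 to 2660 bases in Rsad2, and 0 of the 10 held a 3p site of either kind, against 14.1% of all genes tested. A 5p site was present in 1 of the 10, Ifi44, against 15.9% of all genes tested. The median 3′ UTR was 801.5 bases for the 10 genes and 1186 bases for all genes tested, and the counts were not adjusted for length. Of the 28 IFNγ-induced genes with a 3′ UTR, 4 (14.3%) held a 3p site (Gbp3, Gbp8, Irgm2 and Ciita). These counts describe the annotated sequence only.

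Outside the lists, the genes whose log2 CPM followed the mean of the 10 antiviral genes most closely over the 6 libraries were Ostf1 (Pearson r = 0.995), Xcl1 (0.987), Myo1f (0.987), Rab32 (0.981) and Tnfsf15 (0.981). These correlations are descriptions over 6 libraries that share the high value of KO replicate 1. Myo1f, an unconventional myosin, had 116.6, 99.4 and 91.2 CPM in WT and 189.3, 60.3 and 70.8 CPM in KO. Rab32, a small GTPase of vesicle transport, had 5.74 to 6.04 CPM in WT and 25.0, 2.35 and 2.40 CPM in KO. In both, as in Rsad2, KO replicate 1 was above and the other KO libraries below all WT libraries.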

How the data were processed

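RNA-seq libraries were made from splenic CD4+YFP+ Treg cells of 3 WT (Foxp3Cre) and 3 KO (Foxp3Cre miR-142fl/fl) mice. The authors aligned reads to mm10 with HISAT and counted them per gene without regard to strand with featureCounts. The deposited values are raw counts, not normalized. Genes with CPM above 1 in at least 3 libraries were kept, scaled with TMM and tested with edgeR 4.0.16 (QLF test, R 4.3.3, Benjamini-Hochberg FDR under 0.05), as the study's methods describe. CPM values printed here are TMM-normalized. SEs and confidence intervals of log2 fold changes were derived from the F statistic. DESeq2 1.42.0, other scalings and filters, a replicate block and fits without each library were alternatives. The steps were tested on simulated data. A symbol was matched to GENCODE vM21 (GRCm38) for positions, exon lengths and 3′ UTRs, and to RefSeq (GRCm38.p6) for promoters and microRNAs. Replicates were separate mice. Total counts per library lay between 13883069 and 24042994, and an interval or floor from counts covers counting error only.

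Named genes were the 10 genes, called genes of the other lists, Stat2, Irf9, Irf7 and Irf1 as central factors, and the 5 genes outside the lists most like the 10. Oas2, Herc6 and Irf8 were named after their values were seen, and the library values given for single genes of the other lists were also chosen then. The 10 genes and all lists were chosen with earlier results of these data known. Not every called gene of the lists is reported here by name.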

Additional observations from a re-analysis of the deposited data

How the results depend on the processing

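Under 8 alternatives that kept all libraries (RLE size factors, library size alone, no filter beyond 1 count, edgeR's filterByExpr, DESeq2, the QLF, likelihood ratio and exact tests together, robust QLF and a replicate block), the log2 fold changes of the 10 genes kept their direction and side of the threshold in 78 of 80 values, and the exceptions were Usp18 without the filter (FDR = 0.0563) and with the block (FDR = 0.0641). The number of the 10 called lower, 1 with all libraries, was 0 without the filter, 0 at an FDR of 0.01 and 0 with the replicate block. The 2 receptor and signalling genes called higher became 1 with library size alone, 1 without the filter, 1 with the block and 0 at an FDR of 0.01. At that threshold 1 other antiviral gene was called higher and 2 lower, and 10 IFNγ-induced genes were called higher. Library size alone gave 1064 genes higher and 1201 lower over all genes tested, against 1350 and 847 with TMM, and the block gave 1061 and 545. The cause of these changes was not tested.

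Whether the replicate numbers pair the mice is not known. Deviations of same-numbered WT and KO libraries correlated at 0.0804, -0.0056 and -0.195, and not every library correlated best with its own number. These deviations were taken within groups of 3 libraries, so the correlations cannot show that the mice were unpaired. The study's methods name no block, and the block is given only in this section.

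Leaving out 1 library at a time moved the median log2 fold change of the 10 genes between -0.31 and 0.34, the number called lower between 0 and 4, the other antiviral genes called higher between 1 and 10 and lower between 2 and 14, the IFNγ-induced genes called higher between 10 and 22, and the receptor genes called higher between 0 and 2. The lowest counts occurred without a WT library, and for the 10 genes and the receptor genes also without KO replicate 3. Over these fits the log2 fold changes ranged from -0.020 to 0.66 for Isg15, from -0.11 to 0.52 for Ifit3, from -0.16 to 0.96 for Oasl2, from -0.24 to 0.62 for Mx1, from -0.11 to 0.29 for Bst2 and from -0.39 to 0.88 for Ifi44, each negative only without KO replicate 1. For Rsad2 they ranged from -1.34 without KO replicate 1 to 0.17 and 0.25 without KO replicate 2 or 3. The 4 lower calls without KO replicate 1 were also obtained, with the same genes, with RLE size factors, library size alone, DESeq2 and no filter, settings chosen after seeing the data. In those fits the other antiviral genes called lower numbered 12, 17, 18 and 15 and those called higher 5, 4, 7 and 4. The receptor genes called higher were 2, 1, 2 and 2, and 1 was called lower with library size alone and with DESeq2. The lowest count of the 10 genes was 23, for Ifi44 in KO replicate 2.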
